A study of Homo sapiens with 4 samples.

Results

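The replication histone genes lie in a large cluster on chromosome 6, and H3K27ac over them was described in a pair of cell lines from B-cell precursor acute lymphoblastic leukemia (BCP-ALL). The cluster was taken as 2 blocks on hg19, a first block of 280001 bp (chr6:26010000-26290000) and a second block of 780001 bp (chr6:27090000-27870000), and the 799999 bp between them (chr6:26290001-27089999) served as the comparison. The members were all peaks that overlapped a block by at least 1 bp. There were 56 such peaks among the 44626 of REH and 56 among the 74504 of 697. The H3K27ac peaks of each cell line, grown in culture, were called against input DNA of the same cell line. REH carries the ETV6/RUNX1 fusion, has lost the remaining ETV6 allele, and is a single cell line standing for that leukemia subtype. The 697 cell line is a B-ALL line without that fusion. There was 1 library per cell line, so no difference between them has a replicate check and no test across cultures was possible. After duplicate tags were removed, 65241657 REH and 68911420 697 ChIP tags remained.

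Replication-dependent histone genes supply the proteins that package newly made DNA, and are transcribed mainly while DNA is being copied. H2A, H2B, H3 and H4 form the core of the nucleosome, and the linker histone H1 binds where DNA enters and leaves it. The genes are short, mostly without introns, are present in many copies, and their transcripts end in a stem-loop in place of a poly(A) tail. H3K27ac, acetylation of a lysine in the tail of histone H3, marks active promoters and enhancers, so that the protein encoded by the H3 genes of the cluster carries the mark measured here.

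The list of histone genes used here has 55 members on chromosome 6. In their RefSeq order on GRCh38, 32 genes run from H1-1 to H4C8, with the iron-regulating gene HFE among them, and were taken as the genes of the first block. The second block was taken to hold 5 genes from H2BC11 to H2AC12 and, beyond PRSS16, POM121L2, ZNF391 and ZNF184, another 16 from H2BC13 to H2BC17. These 53 genes comprise 6 H1, 11 H2A, 14 H2B, 10 H3 and 12 H4 genes, and the other two, H2AC1 and H2BC1, lie apart, beyond TRIM38. Between the blocks lie the butyrophilin genes (BTN3A2 to BTN1A1), which encode membrane proteins of the immunoglobulin superfamily, and HMGN4, ABT1 and ZNF322. Because the annotation at hand was on GRCh38 and the peaks are on hg19, no peak was assigned to a gene, and statements on peaks refer to the blocks.

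Promoters of 48 of these 53 genes were matched in the RefSeq promoter table (GRCh38.p14), with 52 start sites in all. H4C1, H4C3, H2AC12, H3C11 and H3C12 were not matched. The sequences below show what such promoters hold, with the earliest matched gene of each family in the order of the first block. Each is the 250 bases before the start of H1-1 (chr6:26017788-26018037, minus strand), H2AC4 (chr6:26033619-26033868, minus strand), H2BC3 (chr6:26043714-26043963, minus strand), H3C1 (chr6:26020201-26020450, plus strand) and H4C2 (chr6:26027284-26027533, minus strand), written 5′ to 3′ along the gene. Capitals mark TATAAA (letters of the TATA box), CCAAT (letters of the CCAAT box) and ATTTGCAT (the octamer bound by OCT factors). They are marked on either strand and at any distance from the start, so a marked copy need not be a working element.
H1-1: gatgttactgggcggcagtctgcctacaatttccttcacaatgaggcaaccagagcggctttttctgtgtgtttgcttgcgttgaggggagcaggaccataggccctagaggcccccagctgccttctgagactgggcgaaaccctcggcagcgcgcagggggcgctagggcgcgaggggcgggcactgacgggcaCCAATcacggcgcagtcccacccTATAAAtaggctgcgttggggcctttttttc
H2AC4: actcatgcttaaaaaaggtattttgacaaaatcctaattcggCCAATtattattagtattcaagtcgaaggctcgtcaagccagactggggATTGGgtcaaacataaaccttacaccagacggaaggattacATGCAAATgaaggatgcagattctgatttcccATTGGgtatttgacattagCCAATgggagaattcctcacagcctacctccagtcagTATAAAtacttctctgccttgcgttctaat
H2BC3: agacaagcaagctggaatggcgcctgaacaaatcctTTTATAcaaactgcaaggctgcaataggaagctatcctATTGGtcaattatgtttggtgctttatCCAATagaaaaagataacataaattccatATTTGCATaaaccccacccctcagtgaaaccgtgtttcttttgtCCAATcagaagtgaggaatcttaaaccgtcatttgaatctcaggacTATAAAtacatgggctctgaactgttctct
H3C1: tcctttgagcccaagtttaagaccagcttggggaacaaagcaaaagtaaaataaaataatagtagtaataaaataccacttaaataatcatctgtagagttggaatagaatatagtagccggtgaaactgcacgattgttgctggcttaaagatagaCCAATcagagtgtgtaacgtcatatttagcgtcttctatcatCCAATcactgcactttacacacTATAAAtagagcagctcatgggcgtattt
H4C2: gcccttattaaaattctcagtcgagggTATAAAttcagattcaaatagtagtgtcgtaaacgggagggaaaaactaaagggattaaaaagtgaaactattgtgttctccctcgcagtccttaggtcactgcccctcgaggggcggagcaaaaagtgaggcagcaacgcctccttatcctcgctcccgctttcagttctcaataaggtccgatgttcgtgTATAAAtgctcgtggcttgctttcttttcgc
H2AC4 and H2BC3 hold all 3 motifs, H1-1 and H3C1 hold TATAAA and CCAAT, and H4C2 holds TATAAA alone.

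Over windows of 300 bases, from 250 before to 50 after each start and on both strands, CCAAT was found in 45 of the 52 histone promoters (86.5%), against 34.6% of all 35116 promoters of the table. It was in every matched H1, H2A, H2B and H3 promoter and in 3 of the 10 H4 promoters, those of H4C6, H4C9 and H4C13. TATAAA was found in 34 of 52 (65.4%), against 11.5% of all promoters, with H2B highest at 12 of 16 and H1 lowest at 3 of 6. ATTTGCAT was found in 21 of 52 (40.4%), against 1.77% of all promoters. This octamer was in 8 of 10 H2A and 12 of 16 H2B promoters, in 1 of 10 H3 promoters (H3C4), and in none of the 6 H1 or 10 H4 promoters. The H2A and H2B counts are not independent of each other. The table holds 8 pairs of H2A and H2B genes transcribed away from each other, from starts 194 to 248 bp apart (median 242), so the windows of a pair share bases, and in 6 of the 8 pairs the same octamer was counted for both genes. These matches describe letters in a window and were not set against the peaks.

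H3K27ac peaks were dense in the first block in both cell lines. REH had 30 peaks there, or 10.7 per 100 kb (95% exact Poisson interval 7.23 to 15.3, counting error only), and 697 had 31 peaks, or 11.1 per 100 kb (7.52 to 15.7). The rest of the genome, measured between the outermost peaks of each chromosome, had 1.49 peaks per 100 kb in REH and 2.48 in 697. The density of the first block was thus 7.21 times that of the rest of the genome in REH and 4.46 times in 697. The difference between the multiples lies in the rest of the genome, since both cell lines had about as many peaks in the block.

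Peaks covered 141801 bp of the first block in REH, which is 50.6%, and 97698 bp in 697, which is 34.9%. In the second block they covered 109883 bp (14.1%) in REH and 93056 bp (11.9%) in 697. The stretch between the blocks had 46928 bp (5.87%) under REH peaks and 39804 bp (4.98%) under 697 peaks, and the rest of the genome had 2.26% and 3.38%. Over whole regions, covered share was therefore highest in the first block, lower in the second block and lower again between them. The order was the same in both cell lines. The blocks as a pair had 23.7% of their bases under peaks in REH and 18.0% in 697, which is 4.05 and 3.62 times the covered share of the stretch between. That stretch was itself uneven. In the 100 kb windows of chr6:26300001-26600000, REH peaks covered 14.41%, 14.703% and 14.62%, and 697 peaks 11.539%, 10.359% and 15.984%. These lay near the 14.1% and 11.9% of the second block. In the windows of chr6:26600001-27000000, no share exceeded 1.312%. The low shares between the blocks, and the ratios to them, thus rest in part on bases almost without peaks.

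**Figure D1:**
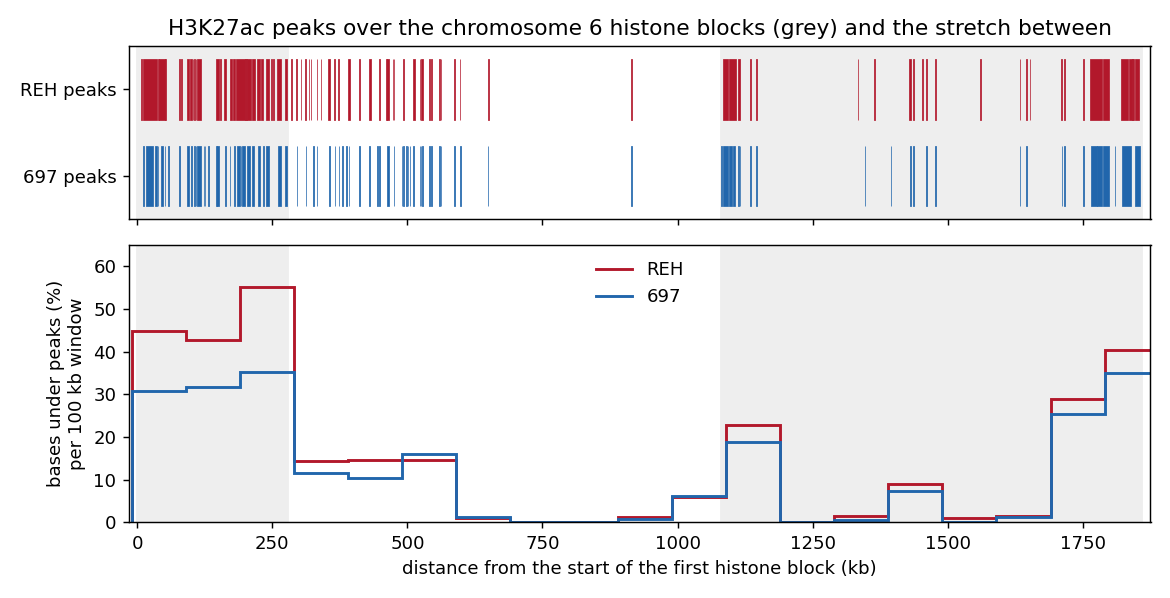
Positions of the H3K27ac peaks of REH and 697 (upper panel) and the percent of bases under peaks in each 100 kb window (lower panel), against the distance in kb from the start of the first block. Grey bands are the histone blocks. Peaks crowd into the first block and into both ends of the second block, and windows of the first block reach 55.2% in REH and 35.3% in 697.

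The number of peaks separated the second block from the stretch between far less than the bases did. The second block had 26 REH peaks, or 3.33 per 100 kb (2.18 to 4.88), and 25 peaks in 697, or 3.21 (2.07 to 4.73), against 31 REH peaks (3.88, interval 2.63 to 5.50) and 33 in 697 (4.13, interval 2.84 to 5.79) between the blocks. For the blocks as a pair against the stretch between, the ratio of peak densities was 1.36 in REH (95% Wilson-based interval 0.882 to 2.11) and 1.28 in 697 (0.836 to 1.96). Both intervals include equal density, so the counts of the pooled blocks were not separated from those of the stretch between. These intervals, like those of the densities, cover counting error only and take the peaks of 1 library as independent counts. The first block alone had 2.76 times the density of the stretch between in REH and 2.68 times in 697, with intervals that did not overlap, and the second block 0.860 and 0.777 times, with intervals that did. For the blocks as a pair, the lengths of the peaks were further apart. The median peak of the blocks was 2350 bp in REH and 2134 bp in 697, against 1066 and 1014 bp between the blocks and 1060 and 871 bp over the whole lists. By block, the medians were 3385 and 2180 bp in the first. In the second they were 1370 and 1125 bp, which is 1.29 and 1.11 times those of the stretch between. Peaks of 5 kb or more were 17 of 56 in REH (30.4%) and 14 of 56 in 697 (25%), while none of the 31 and 33 peaks between the blocks reached that length, and 3.28% and 2.99% of the whole lists did.

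**Figure D2:**
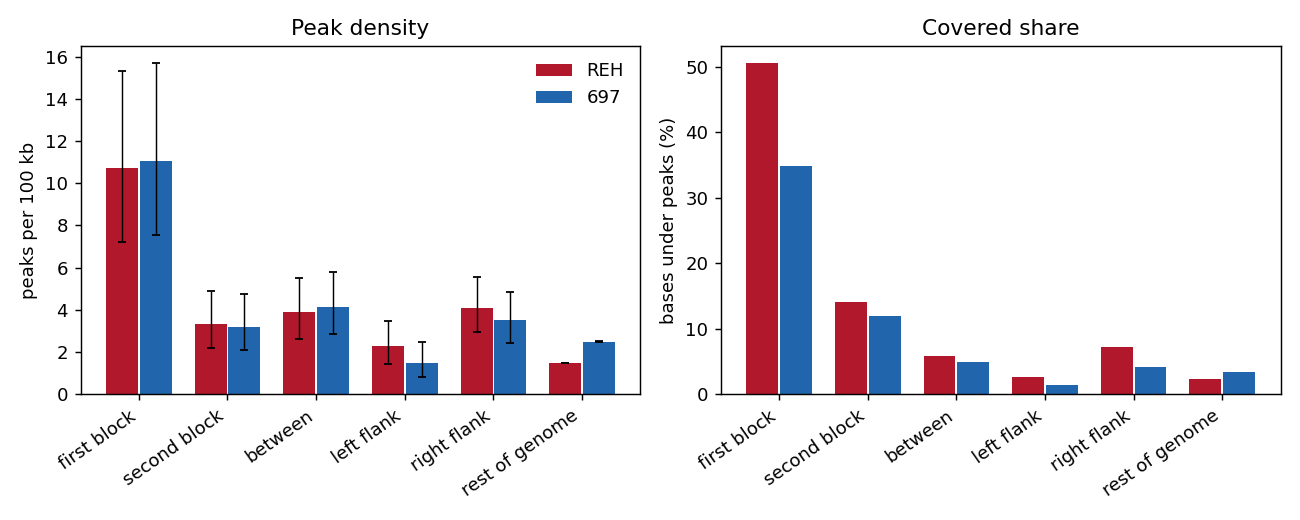
Peaks per 100 kb (left, bars with 95% exact Poisson intervals for counting error) and percent of bases under peaks (right) in REH and 697, for the blocks, the stretch between them, the 1000 kb on each side and the rest of the genome. The first block stands highest in both panels, whereas the second block and the stretch between have overlapping intervals of density but 14.1% and 5.87% of bases covered in REH.

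In the first block, the longest REH peak was 26952 bp (chr6:26020028-26046979) and ranked 7 by length among all REH peaks. Over the same bases 697 had 3 separate peaks of 3137, 14264 and 3936 bp, and the middle one (chr6:26025599-26039862), the longest of 697 in this block, ranked 115 in its list. A single called region in REH thus stood over 3 called regions in 697 near the left edge of the block. The next REH peaks by length were 16621 bp (chr6:26192205-26208825), 9320 bp (chr6:26051409-26060728), 7555 bp (chr6:26213627-26221181) and 7149 bp (chr6:26269170-26276318). In 697 they were 7288 bp (chr6:26120512-26127799), 6128 bp (chr6:26270129-26276256), 5990 bp (chr6:26194745-26200734) and 5494 bp (chr6:26213969-26219462). All 5 of the longest peaks of each cell line overlapped a peak of the other. The longest stretch without a peak was 28145 bp in REH (chr6:26127459-26155603), where 697 had 3 peaks of 404, 816 and 852 bp and the edges of 2 others. In 697 it was 19252 bp (chr6:26068651-26087902), and in REH a peak of 2318 bp (chr6:26087497-26089814) reached into its right edge.

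**Figure D3:**
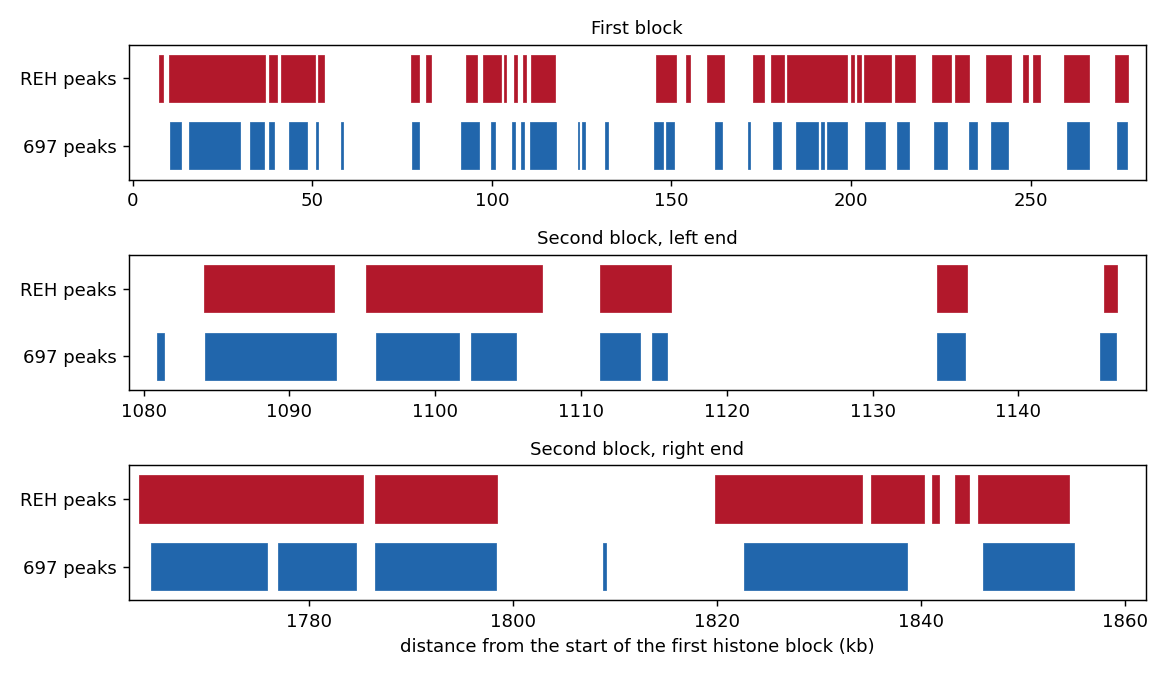
Peaks of REH and 697 drawn to scale in the first block and at both ends of the second block, against the distance in kb from the start of the first block (each panel has its own range). In the first block 3 of 30 REH peaks face more than 1 peak of 697. At the left end of the second block 2 of 5 do, and at its right end 1 of 7. Many edges line up at the ends of the second block.

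The second block was uneven. Its parts were set after the peaks were seen, as a left end up to the longest stretch without a peak in either cell line (chr6:27090000-27156732), a middle (chr6:27156733-27773375), and a right end from the next peak of 10 kb or more (chr6:27773376-27870000). The left end had 43.0% of its bases under 5 REH peaks and 37.4% under 8 peaks of 697. The right end had 66.8% under 7 REH peaks and 58.0% under 6 peaks of 697. The 616643 bp of the middle had 2.69% and 1.95%, under 14 and 11 peaks, of which the longest were 3165 bp in REH and 2936 bp in 697. The covered bases of the second block thus lay mostly at its ends, and the covered share of the middle was far closer to the 2.26% and 3.38% of the rest of the genome. The stretch without a peak in either cell line ran for 186653 bp (chr6:27156733-27343385). Between the blocks the longest stretch without a peak was longer, 263892 bp in REH (chr6:26660230-26924121) and 264328 bp in 697 (chr6:26659848-26924175).

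At the right end, the longest REH peak was 21966 bp (chr6:27773376-27795341, rank 18 of all REH peaks), over 697 peaks of 11383 bp (chr6:27774502-27785884) and 7676 bp. A REH peak of 14454 bp (chr6:27829800-27844253) and the next, of 5177 bp (chr6:27845065-27850241), lay over a single 697 peak of 15954 bp (chr6:27832639-27848592), the longest of 697 in either block and rank 79 in its list. This was the only member of 697 (1 of 56, 1.79%) that met more than 1 REH peak, while 6 REH members (10.7%) met more than 1 peak of 697. Over the whole lists, 1.51% of 697 peaks and 3.12% of REH peaks did so. Pairs with nearly the same edges stood beside them. A REH peak of 11967 bp (chr6:27796452-27808418) matched one of 11866 bp in 697 (chr6:27796523-27808388), with starts 71 bp and ends 30 bp apart, and 8950 bp in REH (chr6:27855554-27864503) matched 8955 bp in 697 (chr6:27856045-27864999). At the left end, 8900 bp in REH (chr6:27094155-27103054) matched 8989 bp in 697 (chr6:27094176-27103164), and a REH peak of 12035 bp (chr6:27105285-27117319) lay over peaks of 5701 and 3120 bp. These peaks complete the 5 longest of the second block in each cell line.

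Of the 56 REH members, 38 overlapped a 697 peak, which is 67.9% (95% Wilson interval 54.8 to 78.6, counting error only), beside 64.1% of all REH peaks. Of the 56 members of 697, 45 overlapped a REH peak, which is 80.4% (68.2 to 88.7), beside 38.9% of all 697 peaks. The REH share thus lay near the share of the whole list, and the 697 share lay above it. By block, 19 of 30 REH and 24 of 31 697 peaks were shared in the first, and 19 of 26 and 21 of 25 in the second. Between the blocks, 24 of 31 (77.4%) and 25 of 33 (75.8%) were shared, so a high share in 697 was also found there. In bases, 92.6% of what 697 peaks covered in the blocks lay under REH peaks as well, and 70.2% of what REH peaks covered lay under 697 peaks. Over the whole lists these shares were 39.1% and 58.5%, and between the blocks 68.6% and 58.2%. In the 1000 kb on the left and right of the blocks, the share for 697 was 73.3% and 79.3%. A share for 697 above that of the whole list was thus also found around the blocks.

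Because a long peak has more bases that can meet another peak, sharing was also set out by length. All 17 REH and all 14 697 members of 5 kb or more were shared, beside 92.6% and 85.8% of such peaks in the whole lists. Of members of 2 to 5 kb, 11 of 13 in REH (84.6%) and 15 of 16 in 697 (93.8%) were shared, beside 85.5% and 70.7%. Members of 1 to 2 kb went different ways, with 5 of 15 shared in REH (33.3%, interval 15.2 to 58.3) beside 73.9% of the whole list, and 9 of 9 in 697 (interval 70.1 to 100) beside 51.4%. The 697 shares lay above those of the whole list in every length class, and the REH shares did so only among the longest peaks. Between the blocks the 697 shares also lay above the whole list, in each class that held peaks. Under 1 kb they were 75% there, 41.2% in the members and 21.5% in the whole list. At 1 to 2 kb and at 2 to 5 kb they were 71.4% and 100% between the blocks. A share above the whole list was thus not particular to the members.

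**Figure D4:**
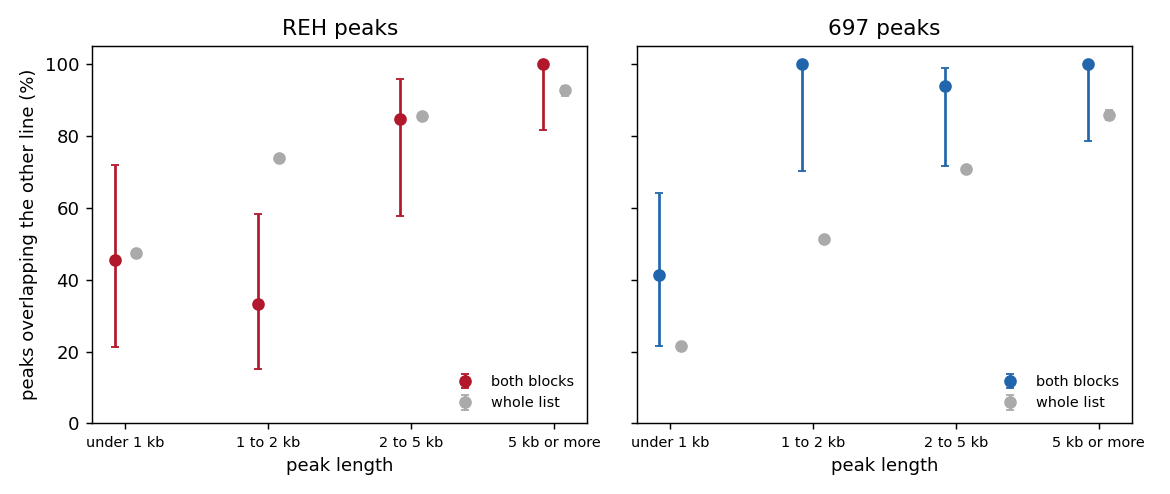
Percent of peaks that overlap a peak of the other cell line, by peak length, for the members in both blocks (colour) and the whole list (grey), with 95% Wilson intervals for counting error. In 697 the members sit above the whole list in each class; in REH they sit below it at 1 to 2 kb, with 33.3% against 73.9%.

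The unshared members were shorter than the shared ones, as unshared peaks were over the whole lists. The 18 of REH had a median of 1071 bp (239 to 3998) and the 11 of 697 a median of 569 bp (209 to 2162), against 4759 and 2710 bp for the shared members. Over the whole lists the medians were 667 and 664 bp for unshared and 1378 and 1512 bp for shared peaks. At 2 kb or more there were 2 of 18 in REH (11.1%) and 1 of 11 in 697 (9.09%), near the 8.61% and 8.47% of all unshared peaks. They were 3194 bp (chr6:26182667-26185860) and 3998 bp (chr6:26238851-26242848) in REH and 2162 bp (chr6:26242925-26245086) in 697. The last 2 of these lie next to each other with 76 bp between them, so at that place each cell line had a peak and the rule of 1 bp left both unshared. Of the unshared members, 12 of the 18 in REH and 5 of the 11 in 697 lay within 5 kb of a peak of the other cell line, beside 33.1% and 29.4% of all unshared peaks and 4 of 7 and 5 of 8 between the blocks. Peaks are denser in the blocks than in the genome, so closeness to a peak of the other cell line is not read as a trait of the members.

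The balance between the cell lines differed from that of the whole lists. Over all peaks, 697 had 1.67 times as many peaks as REH, and the bases under REH peaks were 0.669 times those under 697 peaks. In the blocks the peak numbers were equal, and REH peaks covered 1.32 times the bases of 697 peaks, 1.45 times in the first block and 1.18 times in the second. A ratio above 1 was not limited to the blocks, since it was 1.18 between them and 1.87 and 1.74 in the 1000 kb on their left and right, while the rest of chromosome 6 as a whole had 0.792. With 1 library each, cell line and library cannot be told apart.

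Where a REH and a 697 peak overlapped only each other, their lengths could be set side by side. In the first block, 16 such pairs had a median ratio of REH to 697 length of 1.41, and REH was longer in 12. In the second block, 14 pairs had a median ratio of 1.07, and REH was longer in 10. Outside the blocks, 24902 pairs had a median ratio of 0.943, with REH longer in 45.2%. The edges also differed between the blocks. In the first block the starts and ends of paired peaks were a median of 664 bp apart, with 11 of 32 edges within 500 bp, and in the second block 118 bp apart, with 27 of 28 edges within 500 bp. The value for all other pairs was 289 bp, with 67.2% of edges within 500 bp, so the edges of first-block pairs lay further apart and those of second-block pairs closer. Between the blocks, 23 pairs had a median ratio of 1.10, with REH longer in 15, and edges a median of 133 bp apart, with 37 of 46 (80.4%) within 500 bp. The median ratio and median distance lay near those of the second block. The share of edges within 500 bp lay between those of the second block and of all other pairs. Edges closer than those of all other pairs were thus also found outside the second block.

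**Figure D5:**
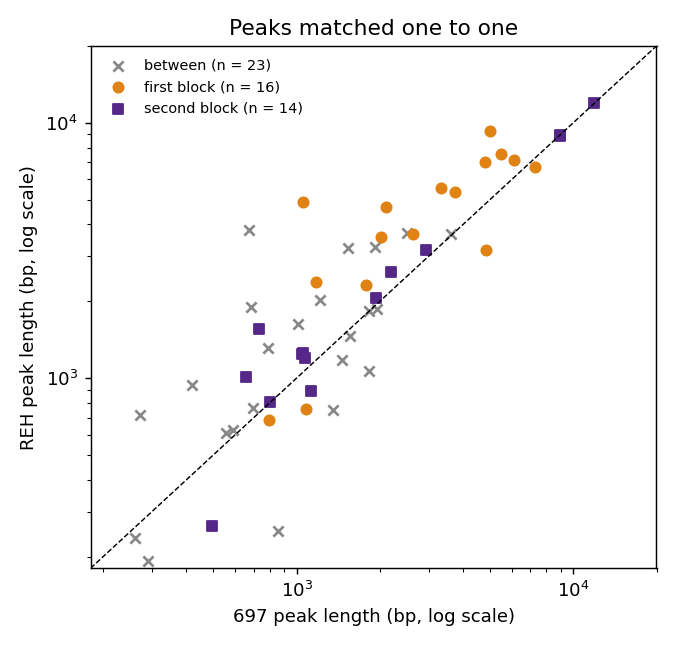
Length in REH against length in 697 for peaks that overlap only each other, on log scales, in the first block, the second block and the stretch between; the dashed line marks equal length. In the first block 12 of 16 pairs lie above the line (median ratio 1.41), and second-block pairs lie close to it (median ratio 1.07).

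In bins of 10 kb, the blocks had 58 of 106 bins with a peak in either cell line, 27 of 28 in the first block and 31 of 78 in the second. A bin was called different when only 1 cell line had a peak in it or when the covered bases differed at least 2 times. Of the 58 bins, 19 were different (32.8%), beside 72.3% of the 66743 bins with a peak in the whole genome and 16 of 30 between the blocks (53.3%). Of the 19, 14 had more covered bases in REH and 5 had more in 697, whereas over the genome 14673 had more in REH and 33585 more in 697. Between the blocks 10 had more in REH and 6 more in 697, so a lean to REH was not limited to the blocks. Of the 9 different bins of the first block, 3 had peaks in REH only, 2 had peaks in 697 only, and 4 had peaks in both with at least 2 times the covered bases in REH.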

How the data were processed

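The authors sequenced H3K27ac ChIP and input DNA of REH and 697 cells. Per the file headers, peaks were called with MACS 2.1.0.20150731 in broad mode against the input, with q-value cutoffs of 0.05 and 0.1 and 1 tag per position, whereas the study's methods name an earlier MACS. Reads were mapped to hg19 with Bowtie per the methods and Bowtie2 per the submitters' processing notes. Each deposited list gives the position and length in bp of each peak. The deposited q-values, on a −log10 scale, served only for an alternative, and the pileup, fold and p-value columns were not used. Reads within a peak were not analysed here, so the depth behind a single peak is unknown.

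Peaks were read with 1-based starts, covered bases were clipped to the region, and an overlap of 1 bp or more made a peak shared. No test was run, since each cell line has 1 library and the peaks of a library are not replicates. Intervals (exact Poisson for densities, Wilson for shares, and a Wilson interval of the blocks' part of the counts, rescaled by length, for density ratios) are at 95% and cover counting error only. Peaks named are the 5 longest per block and cell line, unshared members of at least 2 kb and the longest empty stretches, and other peaks given with coordinates or lengths, which lay beside or over these, were chosen after their values were seen. The block limits, gene list and members were chosen with earlier results of these data known. The functions were tested on simulated data. Scripts used scipy 1.17.1, pandas 2.3.3, numpy 2.4.6 and matplotlib 3.10.9 under Python 3.11.15. Alternatives were an FDR of at most 5%, a minimum of 500 bp, merging within 1000 bp, equal peak numbers by length, membership by midpoint, limits moved by 10 kb, stricter overlap, bins of 20 kb and a 4-fold difference.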

Additional observations from a re-analysis of the deposited data

How the results depend on the processing

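Of 68 alternative values, 49 stayed within the counting interval of the reported value (for the bin count, within 1.5 times of it) and 19 moved, and the ratio of peak density between the blocks and the stretch between was above 1 in both cell lines under each alternative run for it with whole blocks (1.08 to 1.61). Equal peak numbers by length kept every REH peak, so the density, covered share and density ratio of REH could not move there. The covered share moved most often, because its interval counts bases as independent and is very narrow. For REH it was 22.9% at an FDR of at most 5%, 23.6% with peaks of at least 500 bp, 24.6% after merging, and 23.2% and 23.1% with the blocks narrowed and widened by 10 kb. For 697 these values were 13.6%, 17.8%, 18.5%, 17.3% and 17.5%, and 17.6% with equal peak numbers by length. With equal numbers, 91.5% of the 697 members were shared, beside 52.4% of all 697 peaks kept. For REH the shares were 64.3% of the members and 53.4% of the list. How near the REH share lay to that of its list thus depended on which 697 peaks were kept. This setting leaves out the shortest 697 peaks, so it changes their number and their lengths together. With the first block and both ends of the second block alone, chosen after seeing the data, the covered share was 53.0% in REH and 40.3% in 697, the density 9.47 and 10.1 peaks per 100 kb, and its ratio to the stretch between 2.44 and 2.46, a rise that leaving out a stretch seen to be poor in peaks fixes. With bins of 20 kb, 8 of 32 bins differed (25%), beside 69.3% of all bins with a peak and 31.6% between the blocks. The second block alone also had 31.6%. With a 4-fold difference in bins of 10 kb, 14 of 58 differed (24.1%), beside 62.1% of all bins with a peak. Between the blocks 7 of 30 did (23.3%), so a lower share in the blocks than between them depended on the setting. No paired analysis was possible because each cell line has 1 library and the labels carry no replicate numbers. Only positions and lengths were compared, so differences in the height of H3K27ac were not measured.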
